A study of Mus musculus with 32 samples.

Results

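The summits of accessible chromatin at 9 mouse genes of the Hedgehog pathway were followed through 32 ATAC-seq libraries of limb bud cells. The genes were Ptch1, Boc, Gas1, Hhip, Smo, Sufu, Gli1, Gli2 and Gli3. ATAC-seq reads out the DNA that a transposase, Tn5, can reach between nucleosomes, and a summit is the position where the reads pile highest within a peak. A summit was assigned to a gene when it lay in the gene body or within 50 kb of it and its nearest protein-coding start was a start of that gene (GENCODE annotation of mm10). Summits of all lists were merged into 200-bp intervals, called sites. The 9 genes held 177 sites that were listed in at least 2 libraries, of 133163 such sites in the genome (235 of 186185 with those of a single library). Each site is named by its gene and its distance in kb from the nearest protein-coding start, with a minus sign for upstream.

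Hedgehog ligands act on a cell by binding Ptch1, a receptor that in the absence of ligand keeps the transmembrane protein Smo inactive. Boc and Gas1 are coreceptors that help Ptch1 bind ligand, and Hhip binds ligand without passing the signal on. Once Smo is active, Sufu, which otherwise holds the Gli transcription factors back, releases them: Gli2 is mainly an activator, Gli3 mainly a repressor in the absence of signal, and Gli1 an activator that is itself transcribed in response. Ptch1, Hhip and Gli1 are response genes as well as parts of the pathway. In the limb bud, Shh is made at the posterior margin, and the response genes are transcribed most strongly in the posterior mesenchyme around it.

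The overexpression experiment gave 14 libraries. They were 4 control anterior (control A), 4 control posterior (control P), 3 Etv2OE anterior (Etv2OE A) and 3 Etv2OE posterior (Etv2OE P) parts of the hindlimb. The letters A and P in the labels were read as anterior and posterior, and the same number as the same embryo. Etv2OE embryos carried iHA-Etv2 (Tg/+) and ROSA26-STOP-rtTA-IRES-EGFP (Tg/+) together with HoxB6-Cre (Tg/+), so that doxycycline induced HA-tagged Etv2 only where HoxB6-Cre had been active, which in the forelimb is partial. Controls were littermates that lacked a transgene, and the sources differ on which one. The labels give E10.5 for these libraries, while the study describes doxycycline at E9.5 and E10.5 with harvest at later stages, so the stage at harvest is unsettled. The other 18 libraries were cell populations. They held 3 libraries each of Etv2-EYFP+ cells, without endothelial and blood cells, from E10.5 forelimbs (FL EYFP+) and hindlimbs (HL EYFP+) of wild-type pools. Single libraries came from wild-type E9.5 hindlimb and from Shh-EGFP+ cells of posterior hindlimb at E10.5 (E10.5 Posterior). Another came from the anterior part of Shh-EGFP hindlimbs of that age (E10.5 Anterior). The remaining libraries were 2 of E10.5 Etv2CKO hindlimb (posterior by their labels), 5 of E10.25 Etv2CKO and 2 of E10.25 wild-type posterior hindlimb. Etv2CKO embryos were HoxB6-Cre Tg/+; Etv2 fl/-, and each library pooled several embryos of undetermined sex.

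Each deposited list gave 1 summit per line with the -log10 of its q-value, and no read counts, so the depth behind each value is unknown. Absence from a list means only that no peak was called there, which does not show that the site was closed. The lists held 13763 to 54676 summits. The control P lists (51265 to 54676) were all longer than the control A lists (40945 to 45762), and E10.5 Anterior had the shortest list of all. Values were therefore used as ranks. The percentile of a site is that of its summit in the library's own list, with 100 for the top summit. The rank score runs from 1 for the top summit to 0 for a site not listed, in lists cut to their best 30000 summits (overexpression experiment) or 15000 (populations). Scores of the overexpression experiment and of the populations are therefore not on one scale. E10.5 Anterior was too short for the rank score. Differences between groups in rank score were tested by limma over all sites, with p-values adjusted by Benjamini-Hochberg over all of them.

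The promoters of the mesenchymal genes Twist1 and Meox2 were listed in all 32 libraries and that of Prrx1 in 30. Of 5 endothelial genes, Pecam1, Cdh5 and Tie1 were listed in no library, Tek in 4 and Kdr in all 32, and of the blood genes Ptprc and Spi1 were listed in none and Gata1 in 1. Of the ectodermal genes, Epcam was listed in 17 libraries, Cdh1 in 14, Trp63 in 4, Fgf8 in 3 and Krt14 in none. The part of ectoderm in the results below was not tested. Epcam was listed in 2 of 4 control A and 4 of 4 control P libraries and Cdh1 in 0 and 3, but the control P lists are longer. In Etv2OE the order was the other way, with Epcam in 1 of 3 A and 0 of 3 P libraries and Cdh1 in 3 and 1. In the controls the posterior promoters of Tbx2 (1 of 4 A, 4 of 4 P), Hoxd12 (0 and 3), Hoxd13 (1 and 3) and Hoxd11 (1 and 4) were listed more often in P. Of the anterior promoters only Irx3 (2 A and 0 P) was listed more often in A, while Alx4 (2 and 3), Pax9 (4 and 4) and Irx5 (0 and 0) were not. In Etv2OE, Tbx2 was listed in 0 of 3 A and 3 of 3 P libraries, and Hoxd11 and Hoxd12 in none on either side. Of the other posterior genes, Hand2 was listed in 3 of 4 control A and 4 of 4 control P libraries and Tbx3 in all 32 libraries. A summit at the Etv2 promoter was listed in 4 libraries, 1 HL EYFP+, 1 Etv2OE A and 2 Etv2OE P, and it checks neither the transgene nor the deletion.

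The sequences below are the 200 bases around the sites on which the results turn, from the plus strand of mm10. The first 3 are sites called between groups. The next 4 are all member sites that hold the consensus GLI binding motif GACCACCCA on either strand. Capitals mark that motif or, in the first sequence, the ETS core AGGAAAT, and for Ptch1 -7.8 kb 29 bases around the motif are given.
Ptch1 +39.1 kb (chr13:63525331-63525530): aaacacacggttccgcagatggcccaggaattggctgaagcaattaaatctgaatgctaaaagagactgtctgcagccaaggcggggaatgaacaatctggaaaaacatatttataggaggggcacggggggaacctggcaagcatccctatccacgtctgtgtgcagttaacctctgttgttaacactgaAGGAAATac
Hhip +9.5 kb (chr8:80048364-80048563): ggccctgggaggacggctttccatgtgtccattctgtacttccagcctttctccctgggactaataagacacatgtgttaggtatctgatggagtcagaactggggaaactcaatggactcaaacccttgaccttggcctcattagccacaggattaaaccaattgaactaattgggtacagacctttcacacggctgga
Boc +27.7 kb (chr16:44531049-44531248): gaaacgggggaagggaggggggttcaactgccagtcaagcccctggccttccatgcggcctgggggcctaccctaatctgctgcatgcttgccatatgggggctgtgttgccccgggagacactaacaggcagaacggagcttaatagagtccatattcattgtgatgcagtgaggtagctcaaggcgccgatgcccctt
Ptch1 -0.7 kb (chr13:63566314-63566513): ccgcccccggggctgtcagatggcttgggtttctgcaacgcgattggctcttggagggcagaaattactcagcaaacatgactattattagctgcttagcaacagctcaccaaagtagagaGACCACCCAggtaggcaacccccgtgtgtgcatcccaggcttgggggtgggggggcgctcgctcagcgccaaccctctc
Ptch1 -7.8 kb (chr13:63573455-63573483): gccctcggcgTGGGTGGTCtgccgcgcca
Smo -16.7 kb (chr6:29718940-29719139): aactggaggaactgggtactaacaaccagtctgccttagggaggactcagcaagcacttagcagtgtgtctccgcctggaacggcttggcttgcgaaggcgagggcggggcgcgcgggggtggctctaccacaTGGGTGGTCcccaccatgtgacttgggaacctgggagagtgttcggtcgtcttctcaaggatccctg
Boc +6.7 kb (chr16:44552132-44552331): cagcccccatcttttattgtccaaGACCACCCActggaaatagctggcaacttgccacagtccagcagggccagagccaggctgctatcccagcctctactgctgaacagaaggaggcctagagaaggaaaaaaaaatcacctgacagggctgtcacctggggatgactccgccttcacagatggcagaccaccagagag

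Gli3 had the most sites with 39, followed by Gli2 with 35, Hhip with 30, Boc with 24, Ptch1 with 20, Gas1 with 12, Smo and Gli1 with 6 each and Sufu with 5. The long genes thus held most sites, and 111 of the 177 were intronic, 44 upstream, 16 downstream, 4 in a UTR and 2 in a coding exon. Only 25 of the sites (14.1%) lay within 1 kb of a protein-coding start, against 21.6% of all sites, and 152 were distal. Of the 177, 4 were listed in every library (2.26%, against 2.68% of all sites). They were the promoters of Smo and Sufu, an intronic site of Smo at +12.6 kb and Ptch1 -2.3 kb. Among distal sites, 6 of 152 (3.95%) were in 30 or more lists, against 1.69% of all distal sites.

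The number of the 177 sites that a library listed followed the length of its list. Control A libraries listed 71, 75, 75 and 79 sites and control P libraries 84, 85, 78 and 83. As a share of all sites of the same library this order turned round, with 0.153% to 0.158% in control A and 0.134% to 0.154% in control P. Etv2OE A libraries listed 46, 59 and 62 sites, Etv2OE P 62, 64 and 72, FL EYFP+ 64 to 79, HL EYFP+ 60 to 68 and E10.25 wild type 61 and 70. The shortest counts belonged to the shortest lists, with 21 sites in E10.5 Anterior and 20 and 30 in the E10.25 CKO replicates 2 and 4. The number of distal sites listed per control library overlapped between A and P at Gli2 (15.3 ± 0.957 in A and 17.3 ± 1.5 in P, SD, n = 4 each) and Gli3 (13.8 ± 2.22 and 14.5 ± 2.89). At Smo it was 1, 1, 2 and 1 in A and 3, 3, 4 and 2 in P, which share only the value 2. The difference at Smo lay in the neighbouring sites at -16.7 and -16.4 kb, each listed in 0 of 4 control A and 3 of 4 control P libraries. These counts were not tested, and the P lists are longer. In the whole lists of the 14 libraries, 44.3% of all sites were listed in more P than A libraries and 25.1% in more A than P. The neighbouring Smo sites can share a summit and may not be separate differences.

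**Figure D1:**
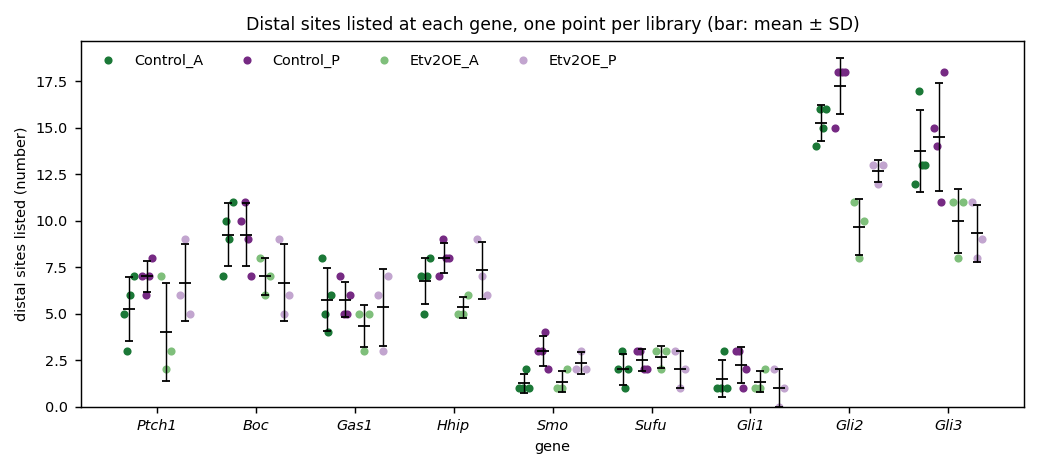
Number of distal sites listed at each gene (y axis) in each of the 14 libraries of the overexpression experiment (points), with mean and SD of each group (bars). Gli2 and Gli3 hold the most sites in every group, control A and control P overlap at most genes, and Etv2OE A lies lowest at Gli2 (8 to 11 sites, against 14 to 16 in control A). The counts are of whole lists, and the Etv2OE A lists are shorter (32666 to 37993 summits, against 40945 to 45762 in control A). In lists of equal length the rank scores of the distal Gli2 sites summed to a mean of 4.14 in Etv2OE A and 4.59 in control A.

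The first question was whether these genes carry different sites in the anterior and the posterior part of the limb bud, since the posterior part receives Shh. In the control sides 90 of the 177 sites could be tested, 19 at promoters and 71 distal. Of these, 2 were called, an intronic Ptch1 site that ranked higher in P and an intronic Hhip site that ranked higher in A. Across the genome 1.38% of sites were called in this comparison, so that 2 of 90 is close to the background. No promoter of the 9 genes was called. An unadjusted p under 0.05 was found at 16 of the 90 sites (17.8%, against 10.45% of all sites), and 39 sites were higher in A, 47 higher in P, with a median difference of -0.0103.

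Ptch1 +39.1 kb (centre chr13:63525430) lies in an intron of Ptch1. Its rank scores were 0.346, 0.554, 0.361 and 0.319 in control P and 0 in all 4 control A libraries, a difference of A minus P of -0.395 ± 0.0534 (SE; limma, adjusted p = 0.00306). In Etv2OE the scores were 0.483, 0.407 and 0.599 in P and 0 in the 3 A libraries, a difference of -0.496 ± 0.0616 (limma, adjusted p = 0.00226). The groups did not overlap in either genotype. A site was tested when at least 2 libraries scored it, and here only P libraries did. Its centre was the summit of control P replicate 2, so that A summits over 200 bp away did not count. The calls are therefore not independent of how the site was chosen. It was the only member site listed in all libraries of one control side and none of the other in lists of equal length, where 1.7% of all tested sites were. With the embryo as a block both calls held (limma, adjusted p = 0.0454 in the controls and 0.0485 in Etv2OE). In the controls 0.542% of all sites were then called.

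Among the populations, 1 FL EYFP+ library listed the site (score 0.250), and no HL EYFP+, E9.5, E10.5 or E10.25 library did. Within 500 bp of its centre, however, all 3 FL EYFP+ libraries (percentiles 69.8, 20.4 and 34.9) and 1 of 3 HL EYFP+ libraries (31.1) had a summit, and no other population did. The contrast lay partly in where the summit fell. In the whole lists the site was called in 1 of 4 control A and in 4 of 4 control P libraries (exact two-sided Fisher test, p = 0.143, with 0.0286 the smallest that 4 against 4 allow). Within 500 bp, 3 of 4 control A libraries had a summit, but at percentiles of 11.96, 12.4 and 23.96, while the control P summits stood at 62.2, 62.5, 64.9 and 73.9. Of the Etv2OE A libraries 1 had such a summit (23.1), against percentiles of 53.4, 67.0 and 69.0 in Etv2OE P. When only summits within 100 bp were counted, neither call held (limma, adjusted p = 0.146 in controls and 0.312 in Etv2OE), nor did they with the best 15000 summits of each list (adjusted p = 0.936 and 0.729).

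Hhip +9.5 kb (centre chr8:80048463), in an intron of Hhip, went the other way. Its rank scores in control A were 0.709, 0.544, 0.320 and 0.356, and in control P 0, 0, 0 and 0.0247, a difference of 0.476 ± 0.0776 (SE; limma, adjusted p = 0.00963). With the embryo as a block this call was lost (limma, adjusted p = 0.0693), as it was with the best 15000 summits of each list (difference 0.127; adjusted p = 0.701). Presence did not separate the sides, since 3 of 4 control P lists held the site at percentiles of 7.03, 31.5 and 45.8 against 54.0 to 78.7 in control A (exact two-sided Fisher test, p = 1). In Etv2OE, A scored 0.252, 0.362 and 0.119 and P scored 0 in each library, and the difference of 0.244 ± 0.0896 was not called (limma, adjusted p = 0.305).

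The other member sites with the largest control differences were not called in lists of equal length. With whole lists, in which the P lists are longer, Gli2 +148.5 kb was called (-0.550; limma, adjusted p = 0.0279). Hhip +140.7 kb, downstream of the gene, scored 0.411, 0.703, 0.620 and 0.628 in control A and 0, 0.453, 0.213 and 0 in control P, with a difference of 0.424 ± 0.104 (limma, adjusted p = 0.0853). The sides overlapped, and without control P replicate 2 the site was called (0.519; limma, adjusted p = 0.0196). Gli2 +148.5 kb, an intronic site, was at 0, 0.111, 0 and 0 in control A and at 0.153, 0.459, 0.657 and 0.455 in control P (difference -0.403 ± 0.120; limma, adjusted p = 0.177), and its neighbour at +148.3 kb shares summits with it (difference -0.362, called without control P replicate 1 at -0.493; adjusted p = 0.0407). Gli3 +80.6 kb scored 0.168 to 0.758 in control A and 0 in 3 of 4 control P libraries, the fourth being at 0.628 (difference 0.383 ± 0.191; limma, adjusted p = 0.527). Its neighbour at +80.3 kb was in the whole lists of 3 of 4 control A and 4 of 4 control P libraries.

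**Figure D2:**
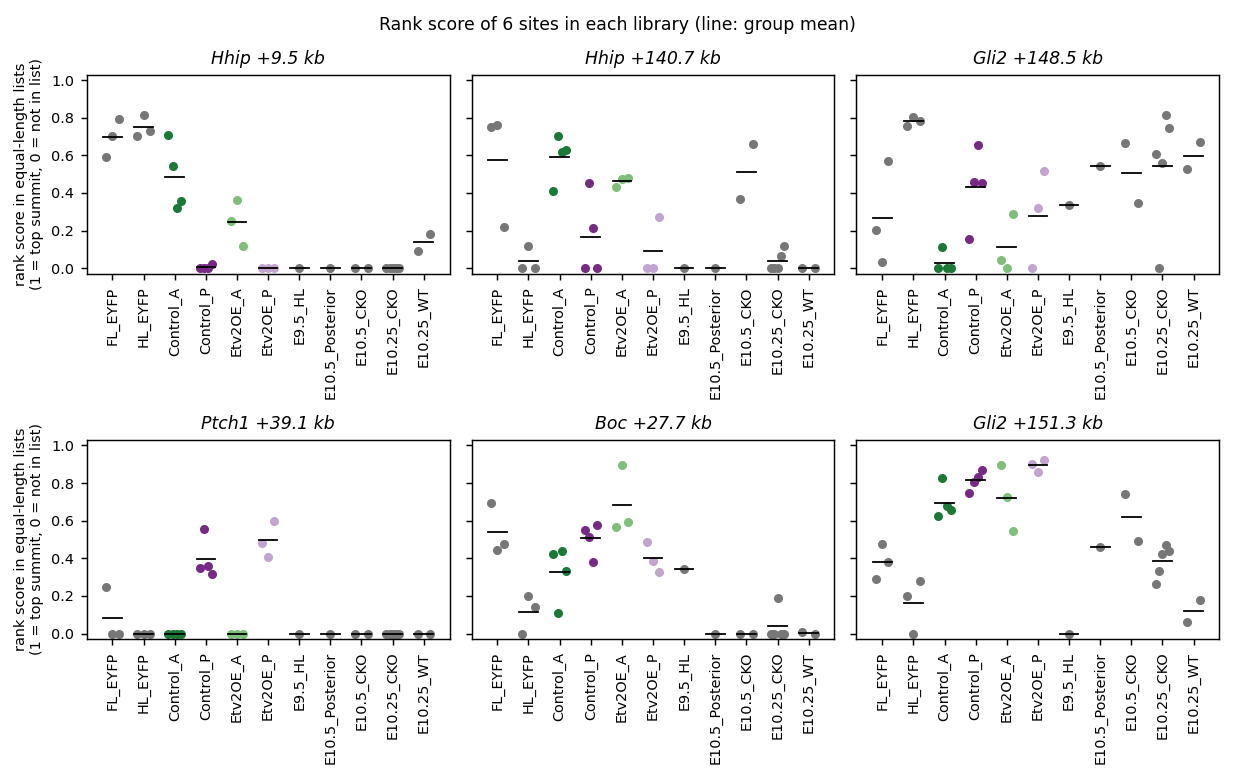
Rank score (y axis, 1 for the top summit of a list and 0 for a site not listed) of 6 sites in each library but E10.5 Anterior, whose list was too short (points; horizontal line, group mean) by group. Ptch1 +39.1 kb is above 0 in the control P and Etv2OE P libraries and in 1 FL EYFP+ library, while Hhip +9.5 kb is above 0 in every FL EYFP+, HL EYFP+ and control A library and at or near 0 in control P, Etv2OE P and Etv2CKO. Lists were cut at 15000 summits in the populations and 30000 in the other groups.

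When A was compared with P over both genotypes, 7 against 7 libraries, 4 member sites were called against 3.37% of all sites. This comparison was chosen after the data had been seen. They were Ptch1 +39.1 kb (-0.446 ± 0.0408; limma, adjusted p = 9.74e-05), Hhip +9.5 kb (0.360 ± 0.0593; adjusted p = 0.00552), Hhip +140.7 kb (0.398 ± 0.0792; adjusted p = 0.0169) and Ptch1 -7.8 kb (-0.366 ± 0.0849; adjusted p = 0.0367). The Ptch1 sites were thus higher in P and the Hhip sites higher in A. Over the 78 sites whose difference was not 0 in either genotype, 56 had the same sign in control and Etv2OE, 22 higher in A and 34 higher in P. The share of equal signs over all sites was not computed, and adjacent sites can share a summit. Whether the count is particular to these genes was therefore not tested.

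**Figure D3:**
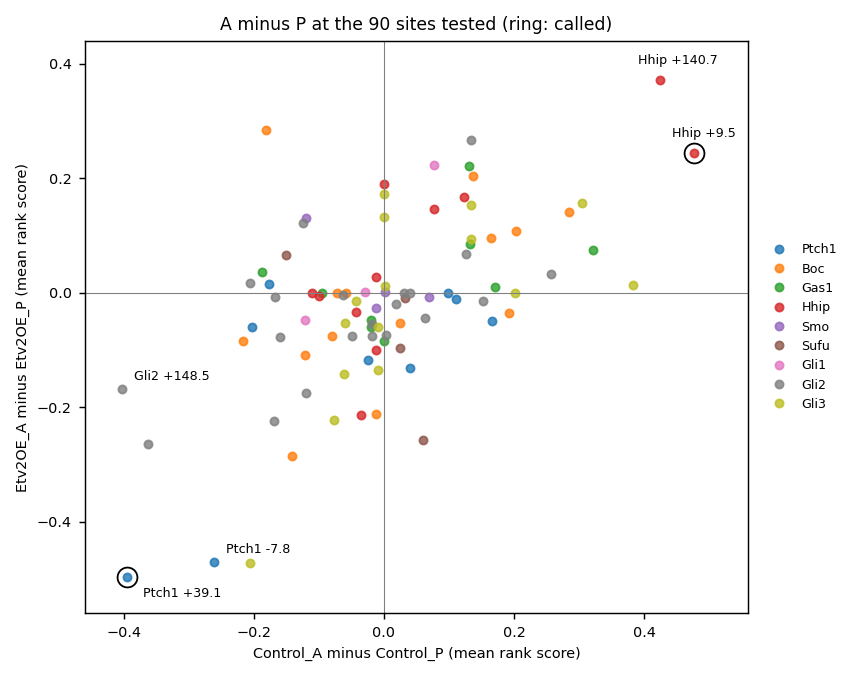
Difference in mean rank score between A and P in the controls (x axis) against that in Etv2OE (y axis), one point for each of the 90 tested sites, coloured by gene; rings mark sites called by limma in either genotype. Ptch1 +39.1 kb and Ptch1 -7.8 kb lie at the lower left (higher in P in both genotypes) and Hhip +9.5 kb and Hhip +140.7 kb at the upper right.

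Summing the rank scores of all distal sites of a gene gave no called difference between the control sides, where 1.02% of 7805 genes were called. The largest difference was that of Gli2, lower in A (4.59 ± 0.225 in A and 5.66 ± 1.12 in P, SD, n = 4; difference -1.08 ± 0.435 SE; limma, adjusted p = 0.295). Hhip was at 1.30 ± 0.269 in A and 0.566 ± 0.384 in P (difference 0.736 ± 0.210; limma, adjusted p = 0.121), and Boc at 2.55 ± 0.236 and 1.94 ± 0.322 (difference 0.617 ± 0.246; limma, adjusted p = 0.286). For Ptch1 the control difference was -0.541 ± 0.333 (limma, adjusted p = 0.540) and that in Etv2OE -1.65 ± 0.384 (limma, adjusted p = 0.0760). The scores of Gli3, Gas1, Smo, Sufu and Gli1 differed by 0.815, 0.472, -0.0409, -0.0659 and 0.0483. Several of these directions turned with the lists: Boc was at -0.0445 with the best 15000 summits and -0.05004 within 20 kb, Gli3 at -0.106 with the best 15000 and -0.0890 in whole lists, Smo at 0.00208 with the best 15000, and Gas1 at -0.215 and Gli1 at -0.277 in whole lists. With the whole deposited lists, in which the P lists are longer, the scores of Ptch1 (-1.60; limma, adjusted p = 0.0409) and Gli2 (-2.63; adjusted p = 0.00685) passed the threshold, without control P replicate 1 that of Gli2 did (-1.56; adjusted p = 0.0402), and with the best 15000 summits that of Hhip did (0.352; adjusted p = 0.00891).

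The GLI consensus GACCACCCA, which Gli proteins bind, occurred in 4 of the 177 sites (2.26%, exact 95% interval 0.619% to 5.69%), against 322 of 133163 sites (0.242%). With 1 mismatch allowed outside its middle CCACC, it occurred in 10 of 177 (5.65%) against 2.28% of all sites. The ETS core AGGAAGT or AGGAAAT, on either strand, occurred in 16 (9.04%, against 11.95%). The 4 exact matches are those printed above, Ptch1 -0.7 kb, Ptch1 -7.8 kb, Smo -16.7 kb and Boc +6.7 kb.

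None of the 4 GLI motif sites was listed in more A than P libraries. Ptch1 -7.8 kb was listed in 4 of 7 A and 7 of 7 P libraries, with rank scores of 0.160, 0, 0 and 0 in control A, 0.219, 0, 0.679 and 0.310 in control P, 0 in each Etv2OE A library and 0.569, 0.447 and 0.396 in Etv2OE P. Smo -16.7 kb was listed in 0 of 7 A and 5 of 7 P libraries, at percentiles of 12.2 to 47.3. Boc +6.7 kb was listed in 0 of 7 A and 4 of 7 P libraries, at percentiles of 13.7 to 35.5. These are low ranks, and the longer P lists reach further down. Ptch1 -0.7 kb was listed in 6 of 7 of each side, with control scores of 0.296 ± 0.0998 in A and 0.498 ± 0.178 in P (SD, n = 4; difference -0.202 ± 0.156 SE; limma, adjusted p = 0.756).

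The same direction was found for the motif over the whole genome. Of the 247 sites with the exact motif that were in at least 2 of the 14 lists, 68.8% were listed in more P than A libraries and 11.7% in more A than P, against 44.3% and 25.1% of all 95610 such sites. In lists of equal length the shares were 53.1% and 22.3% of 130 motif sites, against 32.6% and 33.1% of all 59444 sites. For the member sites as a whole they were 35.6% and 35.6% of 90. The motif was searched as letters only, and a match is not a bound site.

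The second question was whether Etv2 overexpression moved these sites. No member site was called by limma between Etv2OE A and control A (0.0959% of all sites were, and 7 of the 90 had an unadjusted p under 0.05, 7.78% against 6.09% of all), between Etv2OE P and control P (0.0656%; 9 of 90, against 5.96% of all), or for the difference of the A-P contrast between genotypes (0.0639%; 5 of 90, 5.56% against 4.81% of all). In Etv2OE itself 1 site was called between A and P, Ptch1 +39.1 kb, against 1.12% of all sites. In lists of equal length, 5 member sites were in all libraries of one Etv2OE side and none of the other, as were 3% of all tested sites. They were Ptch1 +39.1 kb, Ptch1 -7.8 kb, Gas1 -48.9 kb and Gli2 +136.9 kb for P and Hhip +9.5 kb for A. Ptch1 +39.1 kb was at 0 in all 3 Etv2OE A libraries, as in the control A libraries.

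The largest difference between Etv2OE A and control A was that of Boc +27.7 kb, at 0.564, 0.897 and 0.591 in Etv2OE A and 0.424, 0.108, 0.437 and 0.332 in control A (difference 0.359 ± 0.0962; limma, adjusted p = 0.453). The groups did not overlap. In P the means lay the other way, with overlap, at 0.486, 0.386 and 0.330 in Etv2OE P and 0.550, 0.513, 0.382 and 0.577 in control P. The difference of the contrasts was 0.464 ± 0.136 (limma, adjusted p = 0.740). Among promoters, Smo -193 bp was lower in Etv2OE P (0.409, 0.466 and 0.634) than in control P (0.702, 0.813, 0.753 and 0.788) without overlap, and the difference of -0.261 ± 0.0639 was not called (limma, adjusted p = 0.340). How often groups of this size do not overlap over all sites was not counted, so nothing is drawn from it for Boc +27.7 kb or Smo -193 bp.

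**Figure D4:**
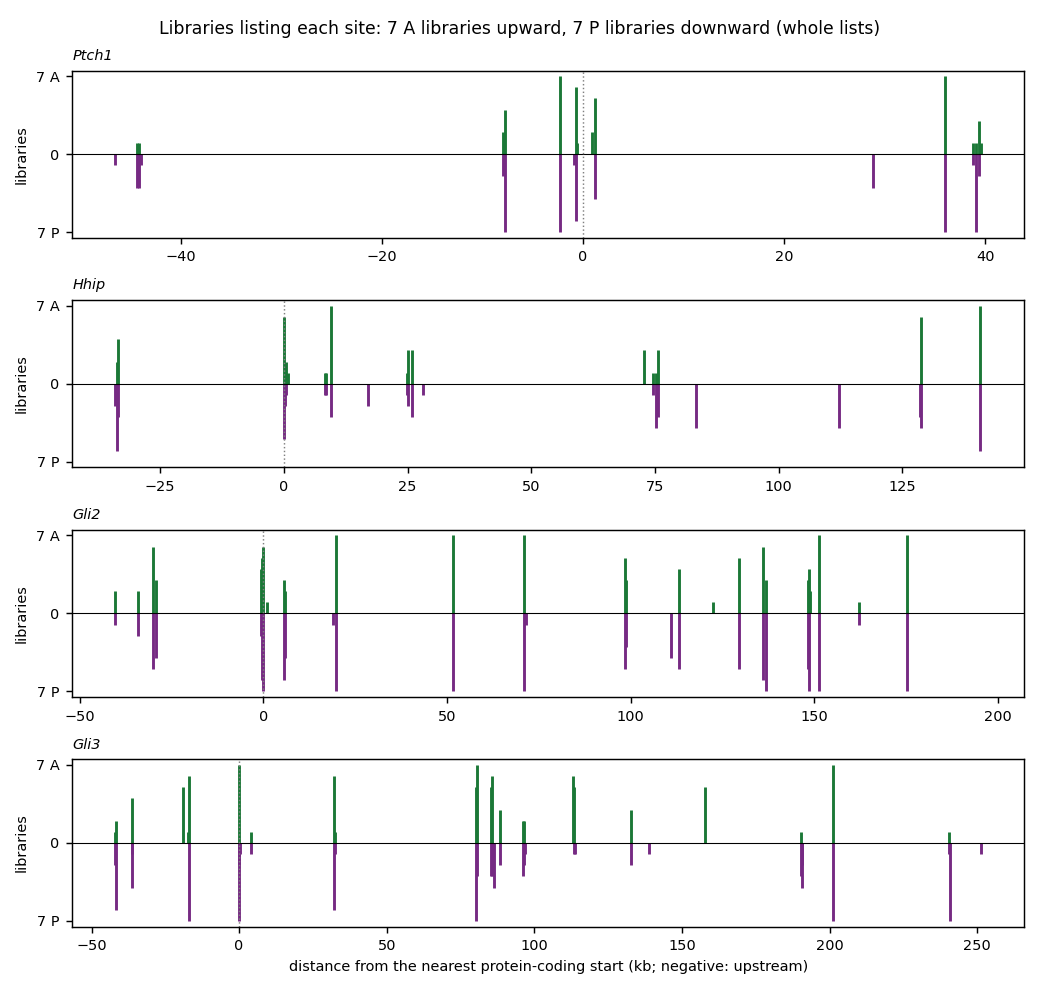
Libraries listing each site in the whole lists at Ptch1, Hhip, Gli2 and Gli3, by distance from the nearest protein-coding start (x axis, kb): bars upward count the 7 A libraries and bars downward the 7 P libraries of the overexpression experiment. At Ptch1 +39.1 kb the bar reaches 1 A and 7 P libraries, at Hhip +9.5 kb 7 A and 3 P libraries, and most tall bars are alike on each side.

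Going gene by gene from the receptor inwards, Ptch1 (chr13:63508328-63573598, minus strand) had its constant site at -2.3 kb, in an intron of a longer transcript. It was listed in all 32 libraries at percentiles of 10.46 to 92.2 (median 78.5). The promoter site at -678 bp was listed in 25 libraries (median percentile 56.0), among them all 8 controls. Ptch1 -7.8 kb lies 111 bp inside the start of a protein-coding Ptch1 transcript of the full GENCODE annotation, whose end is marked as incomplete. The basic annotation, which set the starts here, does not hold that transcript, so the site counted as distal. Of the 9 Ptch1 sites tested between the control sides, 3 had an unadjusted p under 0.05, as did 10.45% of all sites. They were +39.1, -7.8 and +39.3 kb, all higher in P. The whole lists held +39.3 kb in 2 control A and 2 control P libraries. Its 2 control P summits, at -87 and -92 bp from the centre of +39.1 kb, counted for that site too. The count of 3 is therefore not one of independent sites, and +39.3 kb adds no separate result to +39.1 kb.

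Boc (chr16:44485049-44558897, minus strand), the coreceptor of the immunoglobulin family, had a weak promoter site. At +197 bp, in a UTR, it was listed in 20 libraries, at a median percentile of 39.0. Its most listed distal site was the intronic Boc +27.7 kb, in 28 libraries (median percentile 65.4). It was the only member site called between FL EYFP+ and HL EYFP+, where 0.709% of all sites were. It scored 0.697, 0.446 and 0.477 in FL EYFP+ and 0, 0.202 and 0.143 in HL EYFP+ (difference 0.425 ± 0.0773; limma, adjusted p = 0.0276, and 0.0348 with the pool as a block). The call was lost without FL EYFP+ replicate 1 (adjusted p = 0.0689) or HL EYFP+ replicate 1 (0.0713). In the Etv2CKO libraries it was low, at 0 and 0 at E10.5 and 0, 0, 0.187, 0 and 0 at E10.25, while E10.25 wild type had 0.00967 and 0. The whole lists held it in 1 of 2 E10.5 CKO (percentile 27.9), 3 of 5 E10.25 CKO (26.7, 71.5 and 27.2) and both E10.25 wild-type libraries (65.9 and 44.2). Of the 20 distal Boc sites, the E10.5 CKO libraries listed 2 and 0 (10% and 0%, against 22.1% and 17.7% of all distal sites) and the E10.25 CKO libraries 2, 0, 3, 0 and 2 (0% to 15%, against 6.39% to 29.9%). E10.25 wild type listed 8 and 4 (40% and 20%, against 29.5% and 21.7%), and E9.5 and E10.5 Posterior 4 each (20%, against 22.5% and 27.2%). These shares were not tested.

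With the pool as a block, which the shared pools of forelimb and hindlimb call for, 3 member sites were called between FL EYFP+ and HL EYFP+ against 1.6% of all sites. The others were Hhip +140.7 kb (difference 0.536 ± 0.1004; limma, adjusted p = 0.0295) and the intronic Gli2 +71.0 kb (0.366 ± 0.0720; adjusted p = 0.0387), both higher in FL EYFP+. Hhip +140.7 kb scored 0.751, 0.760 and 0.217 in FL EYFP+ and 0, 0.118 and 0 in HL EYFP+. Gli2 +71.0 kb scored 0.603, 0.424 and 0.281 in FL EYFP+ and 0.212, 0 and 0 in HL EYFP+. Neither overlapped. Tbx4 and Pitx1, which mark the hindlimb, had their promoters listed in 3 of 3 HL EYFP+ and 1 of 3 FL EYFP+ libraries each, and Tbx5, which marks the forelimb, in 1 library of each.

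Gas1 (chr13:60174405-60177365, minus strand), a membrane-anchored coreceptor, had a strong promoter site at -161 bp. It was listed in 30 libraries, absent from FL EYFP+ pool 3 and HL EYFP+ pool 2, with percentiles of 66.8 to 97.3 where listed (median 87.7). Its control scores were 0.819, 0.784, 0.818 and 0.748 in A and 0.885, 0.790, 0.847 and 0.726 in P (difference -0.0197 ± 0.0439; limma, adjusted p = 0.9502). The distal site at +51.7 kb, downstream of the gene, was in 29 lists (median percentile 58.7). Gas1 -48.9 kb, chosen after its values were seen, was listed in 3 of 3 Etv2OE P libraries and in no Etv2OE A or control library, at percentiles of 29.2, 32.9 and 37.4. Its difference was called only with whole lists (limma, adjusted p = 3.34e-04 against Etv2OE A and 4.20e-04 against control P). Among the populations the site was in 3 of 5 E10.25 CKO libraries (percentiles 16.4, 43.5 and 5.73) and 1 of 2 E10.5 CKO libraries. It was also in 1 of 2 E10.25 wild-type, 1 of 3 FL EYFP+, 1 of 3 HL EYFP+ and the E9.5 library.

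Hhip (chr8:79965851-80058006, minus strand), the ligand-binding antagonist, had a promoter site at -69 bp in 20 libraries (median percentile 53.4). Hhip +9.5 kb, its most listed distal site, was in 26 libraries. Among the populations it ranked highest in the EYFP+ cells, at 0.593, 0.702 and 0.791 in FL EYFP+ and 0.701, 0.815 and 0.729 in HL EYFP+. E10.25 wild type followed with 0.0910 and 0.184, and both E10.5 CKO and all 5 E10.25 CKO libraries were at 0. The whole lists still held it in 2 of 2 E10.5 CKO (percentiles 44.5 and 35.0) and 3 of 5 E10.25 CKO libraries (31.4, 46.9 and 48.0). The difference between HL EYFP+ and E10.5 CKO was 0.748 ± 0.0594 (limma, adjusted p = 1.3e-05), and that between E10.25 CKO and wild type was -0.138 ± 0.0544 (adjusted p = 0.416).

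Between HL EYFP+ and E10.5 CKO 4 member sites of 54 tested were called, against 5.33% of all sites. The EYFP+ cells were sorted from hindlimbs, while the E10.5 CKO cells are described as unsorted in one place and as posterior cells in another. Genotype, part of the hindlimb and cell population therefore cannot be told apart. Besides Hhip +9.5 kb, 3 sites were higher in E10.5 CKO. This split depended on the lists. In whole lists 8 member sites were called, as were 2678 of all 90372 sites tested. Of the 8, 5 were higher in HL EYFP+ (Boc -43.5, Gas1 +42.8 and +43.0, Gli2 +175.1 and Hhip -33.7 kb) and 3 in E10.5 CKO (Hhip +94.1, +128.5 and +140.9 kb). Gas1 +42.8 and +43.0 kb had the same values in every HL EYFP+ library and share summits, so the 5 are not all separate sites. Only Hhip +140.9 kb was called in both kinds of list. Hhip +140.9 kb was at 0 in all HL EYFP+ and at 0.367 and 0.659 in E10.5 CKO (difference -0.513 ± 0.0677; limma, adjusted p = 5.42e-04). The E10.5 CKO summits lay 129 and 181 bp from its centre and also counted for Hhip +140.7 kb, while the summits of the other groups mostly lay over 200 bp away, so this call rests on summit position. Gli2 +151.3 kb scored 0.199, 0 and 0.282 in HL EYFP+ and 0.741 and 0.494 in E10.5 CKO (difference -0.457 ± 0.101; limma, adjusted p = 0.0178). Hhip +28.2 kb scored 0, 0.0667 and 0 in HL EYFP+ and 0.478 and 0.395 in E10.5 CKO (difference -0.415 ± 0.106; limma, adjusted p = 0.0426), and this call was lost when any 1 library was left out. The call of Gli2 +151.3 kb was lost without HL EYFP+ replicate 2 (limma, adjusted p = 0.0518) or E10.5 CKO replicate 1 (0.232), and in whole lists (0.634), where that of Hhip +9.5 kb was lost too (0.0907).

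Between E10.25 CKO and E10.25 wild type no member site of 54 was called by limma, against 1.61% of all sites. An unadjusted p under 0.05 was found at 2 of the 54 (3.70%), a lower share than the 9.19% of all sites. These were Gli2 +151.3 kb (0.265, 0.330, 0.422, 0.469 and 0.438 in CKO, 0.0621 and 0.176 in wild type; difference 0.266 ± 0.0921, limma, adjusted p = 0.298) and Hhip +9.5 kb. In these lists of equal length Gli2 +151.3 kb was higher in CKO without overlap, a pattern whose share over all sites was not counted. In the whole lists the groups overlapped, with percentiles of 66.1, 35.7, 79.7, 59.6 and 72.1 in CKO and 67.7 and 63.7 in wild type. No member site was called when any single library of these groups was left out, the short E10.25 CKO lists included.

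Smo (chr6:29735503-29761365, plus strand), which passes the signal inwards, had the top site of the pathway. Smo +12.6 kb, in an intron, lies wholly in sequence marked as repeat in the reference genome, as does no other of the 177 sites (median 9.5% of bases), and what part this had in its rank was not tested. It was listed in every library at percentiles of 90.9 to 99.9 (median 99.8), and its control scores differed by 0.00104 ± 0.0237 between A and P (limma, adjusted p = 1). The promoter site at -193 bp was also in all 32 lists, at percentiles of 22.1 to 96.1 (median 79.8). Sufu (chr19:46396896-46488804, plus strand) likewise had a promoter site in every list, at -10 bp (percentiles 45.0 to 94.8, median 89.2). Its intronic site at +25.7 kb was in 28 lists. It scored 0.550, 0.701 and 0.812 in FL EYFP+ and 0 in all E10.25 libraries. The whole lists still held it in 3 of 5 E10.25 CKO (percentiles 35.7, 34.8 and 11.3) and both E10.25 wild-type libraries (63.1 and 8.31), and it was not listed at E9.5.

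Gli1 (chr10:127329882-127341974, minus strand), the gene whose transcription most closely follows the signal, had the least constant promoter. Its site at -478 bp was in 15 lists (median percentile 34.2), among them 2 of 4 control A and 3 of 4 control P, 1 of 3 Etv2OE A and 2 of 3 Etv2OE P libraries. The control scores were 0.235, 0, 0 and 0 in A and 0.156, 0.473, 0 and 0.0945 in P (difference -0.122 ± 0.0911; limma, adjusted p = 0.744). The intronic site at +2.9 kb was in 27 lists (median percentile 67.7) and scored 0.638, 0.770, 0.604 and 0.507 in control A and 0.347, 0.718, 0.636 and 0.511 in control P. No Gli1 site was called between the control sides.

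Gli2 (chr1:118834132-119053619, minus strand) had 35 sites, of which 28 were intronic. The promoter site at -35 bp was in 29 lists (median percentile 67.9) and Gli2 +151.3 kb in 31 (median 77.6). The latter scored 0.623 to 0.825 in control A, 0.745 to 0.870 in control P, 0.547 to 0.894 in Etv2OE A and 0.861 to 0.925 in Etv2OE P, and its percentile was 31.4 at E9.5. Gli2 +148.5 kb, also intronic, had another pattern: it scored 0.756, 0.804 and 0.782 in HL EYFP+ and 0.205, 0.0352 and 0.569 in FL EYFP+, and 2 of 4 control A libraries listed it. The difference between FL EYFP+ and HL EYFP+ was -0.511 ± 0.191 (limma, adjusted p = 0.446).

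Gli3 (chr13:15463235-15730026, plus strand) had the most often listed promoter of the 3 Gli genes. The site at -26 bp was in 31 lists, missing from E10.25 CKO replicate 4, with a median percentile of 89.0. Its control scores were 0.803, 0.876, 0.677 and 0.814 in A and 0.805, 0.853, 0.818 and 0.863 in P. Gli3 +201.0 kb, intronic, was likewise in 31 lists (median percentile 86.8), and scored 0.767 to 0.916 in control A and 0.778 to 0.880 in control P. At E10.25 CKO it was at 0, 0.358, 0.266, 0.266 and 0.7095 and at E10.25 wild type at 0.185 and 0.266.

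The remaining Gli3 sites were less constant, and some, chosen here after their values were seen, divided the control sides in the whole lists. Gli3 -18.8 kb was listed in 4 of 4 control A and 0 of 4 control P libraries, as were 0.365% of 95610 sites. Gli3 -41.6, +190.6 and +240.8 kb were listed in 0 of 4 control A and 4 of 4 control P libraries, as were 1.51%. Of these, Gli3 +240.8 kb also divided Etv2OE (0 of 3 A and 3 of 3 P) and was called between the control sides in whole lists (-0.431; limma, adjusted p = 0.0166). Their summits ranked low, with a highest percentile of 63.5 for -18.8 kb, 43.6 for -41.6 kb, 37.1 for +190.6 kb and 53.0 for +240.8 kb in the controls. Gli3 +113.4 kb scored 0, 0.271, 0.267 and 0.270 in control A, and 0 in control P and both Etv2OE groups. The control difference was 0.202 ± 0.0538 (limma, adjusted p = 0.120). In whole lists, where 6 member sites and 2.7% of all sites were called, the adjusted p was 0.00133 (limma). These lists held the site in 4 of 4 control A, 1 of 4 control P, 1 of 3 Etv2OE A and 0 of 3 Etv2OE P libraries. They held its neighbour at +113.1 kb in 3, 0, 3 and 0, so Etv2OE A also had summits next to it.

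**Figure D5:**
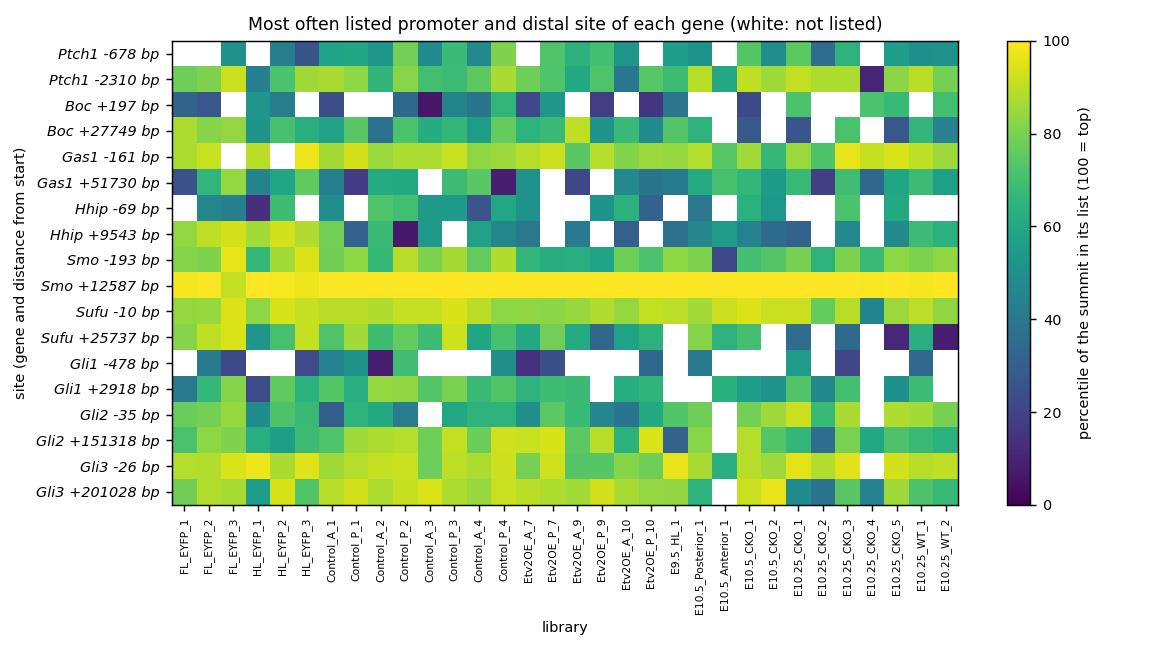
Percentile of the summit in its own list (colour, 100 for the top summit; white, not listed) for the most often listed promoter and distal site of each gene (rows) in each of the 32 libraries (columns). Smo +12587 bp is near 100 throughout, the promoters of Smo, Sufu, Gas1 and Gli3 are high in most libraries, and those of Boc, Hhip and Gli1 are low or missing in many.

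The 3 populations of a single library allow no test. In the Shh-EGFP+ cells of E10.5 Posterior, the promoters of Ptch1 (percentile 51.8), Hhip (39.8) and Gli1 (40.4) were listed, and Ptch1 +39.1 kb was not. At E9.5 the promoter of Ptch1 was listed (56.2) and the sites Hhip -69 bp and Gli1 -478 bp were not, although Hhip had a promoter summit at +449 bp there. Of these 3 response genes, no promoter site named here was listed in E10.5 Anterior, whose list was the shortest, while Hhip +9.5 kb (54.9) and Gli1 +2.9 kb (63.5) were.

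Among other genes of the pathway, few sites differed between the sides. Of 8 genes of ligand production and release, all had sites, and of 51 sites tested 1 was called in the controls, Scube1 +46.1 kb, higher in A (0.758 ± 0.116; limma, adjusted p = 0.00656). Scube1 belongs to a family of secreted proteins, members of which release Hedgehog ligands. Of 43 sites at 5 other receptors none was called in the controls and 2 were in Etv2OE, both of the glypican Gpc5 and lower in A (+382.8 and +383.0 kb; -0.322 and -0.319; limma, adjusted p = 0.0423 and 0.0218). Of 39 sites at genes of the cilium and cytoplasm none was called. Of the 16 names in that list 15 were in the annotation, and 14 had sites. Among 116 sites of 25 target genes 1 was called in the controls, Pax9 +23.0 kb, higher in A (0.660 ± 0.0864; limma, adjusted p = 0.00245) and again in Etv2OE (0.595 ± 0.0997; adjusted p = 0.0141), and in Etv2OE Hoxd12 -1.0 kb was lower in A (-0.238 ± 0.0354; adjusted p = 0.00738). Pax9 is transcribed in the anterior and Hoxd12 in the posterior limb mesenchyme. The medians over the tested sites of the 4 lists were -0.00302 to 0.00554 in the controls, beside -0.0103 for the 9 genes.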

How the data were processed

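Per the labels and the study's methods, reads were mapped by the authors to mm10 (Bowtie2 2.2.4), duplicates were removed, read starts were shifted for Tn5, and MACS2 summits were called for each library alone, with version and options not given in the sources used here. Each of the deposited lists gives every summit and the −log10 of its q-value, lowest 1.3, with no pooling of libraries. Mitochondrial summits were left out here. Differences between lists in duplicate removal cannot be checked. A library called a site when a summit lay within 200 bp of its centre, so adjacent sites can share a summit, and the rank score was (length + 1 − rank) divided by the list length. Sites called in at least 2 of the libraries fitted were tested, two-sided, by limma 3.58.1 (R 4.3.3) at an adjusted p of 0.05, over 59444 sites and 14 libraries (4 groups) or 34295 sites and 15 libraries (5 groups of at least 2). Where nothing says otherwise, replicates may be technical. Presence was compared by Fisher's exact test (scipy 1.17.1). Coordinates are of mm10, with RefSeq's GRCm38 sequence, to which 7 of 7 promoter windows of members were equal.

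Same-numbered A and P libraries, read as the same embryo, deviated from their group means with r = -6.86e-05 to 0.0412 (controls) and 0.0213 to 0.0401 (Etv2OE), other pairs with -0.0307 to 0.0241. FL EYFP+ and HL EYFP+ of the same pool gave 0.242 to 0.544, and other pairs -0.338 to 0.13. Fits with the block were alternatives. The members, gene lists and tests were chosen with earlier results of these data known. Sites named were each gene's most listed promoter and distal site, every called site, sites in all of one control side and none of the other, and the 6 largest control differences. The fits were tested on simulated scores, drawn independently from a normal distribution. The simulation did not model groups that score 0 throughout, so it does not check calls at such sites. Alternatives were the best 15000 or 7500 summits, whole lists, 100 bp, no filter, only the groups compared, 20 kb, q of 0.001 and each library left out; A against P over both genotypes and a 500-bp window were added after seeing the data.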

Additional observations from a re-analysis of the deposited data

Results flagged for a closer look

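In groups of 4 or 5 libraries, 19 of 86 tested sets of values held a library far from the others by Dixon's criterion, where chance flags about 1 in 20. Many of them are sites listed in a single library of a group, so that the other values are tied at 0. In control A the single high rank scores were 0.0669 at Boc +197 bp, 0.235 at Gli1 -478 bp, and 0.111 at Gli2 +148.5 kb and Gli2 +148.3 kb, which share the summit. In control P they were 0.385 at Boc +197 bp, 0.0247 at Hhip +9.5 kb and 0.628 at Gli3 +80.6 kb. The gene score of Gas1 reached 2.73 in 1 control A library, against 1.74 in the next, and that of Smo 1.28 in 1 control A and 1.40 in 1 control P library.

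Among the 5 E10.25 CKO libraries, replicate 4, with the second shortest list of the group, stood apart at 5 sites that are otherwise high. It scored 0.0 at Ptch1 -2.3 kb, Gli2 -35 bp and Gli3 -26 bp, 0.277 at Sufu -10 bp and 0.987 at Smo +12.6 kb, where the nearest other library of the group had 0.650, 0.636, 0.864, 0.695 and 0.994. It was also the high one at Hhip +140.9 kb (0.0645). Replicate 1 was high at Gas1 +51.7 kb (0.296) and Gli1 -478 bp (0.0316) and replicate 3 at Boc +27.7 kb (0.187). No member site was called between E10.25 CKO and wild type with or without any of these libraries.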

How the results depend on the processing

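The embryo or pool as a block gave 322 called sites (1 member, Ptch1 +39.1 kb) between control A and P, 159 in Etv2OE, 4 for the difference of contrasts and 548 (3 members) between FL EYFP+ and HL EYFP+. In the order control A-P, Etv2OE A-P, difference of contrasts, Etv2OE against control in A and in P, FL-HL, HL-CKO and CKO-wild type, the shorter lists gave 204, 193, 4, 22, 20, 49, 734 and 255 called sites, and 0 members in the first 2 and in FL-HL and 1 in HL-CKO. Whole lists gave 6 members in the controls (2585 sites), 2 in Etv2OE (717), 1 for the difference (84), 1 in A (71), 1 in P (426), 4 in FL-HL (1962), 8 in HL-CKO (2678) and 2445 sites in CKO-wild type. With 100 bp, 441, 345 and 18 sites were called in the first 3, with 1 member in the controls and 0 in Etv2OE. Both genotypes together gave 2003 sites and 4 members, and the Etv2OE groups alone 358 and 2.

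Whole lists also moved the split of higher against lower calls, from 376 and 444 to 478 and 2107 in the controls, 321 and 343 to 186 and 531 in Etv2OE, 17 and 21 to 54 and 30 for the difference, 36 and 21 to 12 and 59 in A, 25 and 14 to 43 and 383 in P, 146 and 97 to 1790 and 172 in FL-HL, 565 and 1264 to 1350 and 1328 in HL-CKO and 104 and 447 to 56 and 2389 in CKO-wild type.

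Gene scores reversed at Boc (-0.0445 with shorter lists, -0.05004 within 20 kb), Gas1 (-0.215, whole lists), Smo (0.00208, shorter lists), Gli1 (-0.277, whole lists) and Gli3 (-0.106, shorter lists; -0.0890, whole lists). Those of Ptch1 (-1.60) and Gli2 (-2.63) passed the threshold in whole lists and that of Hhip (0.352) with shorter lists. The causes were not tested.

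Leaving out 1 library gave 584 to 844 called sites (2 to 3 members) in the controls, 663 to 839 (1 to 3) in Etv2OE, 33 to 117 (0 to 1) for the difference, 65 to 298 (0 to 1) in A, 33 to 234 (0 to 2) in P, 277 to 896 (0 to 3) in FL-HL, 1341 to 2182 (3 to 7) in HL-CKO and 184 to 640 (0) in CKO-wild type. Gene scores then ran from -0.112 to 0.0555 at Smo (reversed without control P replicate 1), -0.0941 to 0.283 at Gli1 (reversed without control A replicate 3, and without control P replicate 1 at -0.0800 or 4 at -0.0254) and -1.56 to -0.742 at Gli2. The called values of Ptch1 +39.1 kb and Hhip +9.5 kb kept their call in each. A group left with 1 library was taken to vary like the others. The unknown depth, summit positions and list lengths limit all values.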

Other observations

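The limit of 50 kb left sites just outside that are as often listed as members. Near Ptch1, a site 53834 bp outside the gene was in 24 lists, while the outermost Ptch1 site counted, 38647 bp away, was in 3. At Gas1 the nearest site beyond the limit, at 50204 bp, was in 7 lists and the outermost one counted, at 49227 bp, in 19.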
